A study of Mus musculus with 11 samples.

Results

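The genes described here are 9 genes of heme synthesis and iron transport: Alas2, Alad, Uros, Urod, Cpox and Fech, which encode enzymes of the heme pathway, and Slc25a37, Slc11a2 and Tfrc, which move iron into cells and mitochondria. They were chosen by their measured levels on these same arrays, the combination group included, and are listed by symbol, and all 9 were measured, each by 1 row, among the 19938 genes of the table. The study used 129S1 mice, with RNA of each of 11 lung samples on an Affymetrix array of its own. The 3 combination arrays came from lungs of mice gavaged with aspirin at 4 mg per kg and triptolide at 1 mg per kg together, the 3 triptolide arrays from mice given 1 mg per kg of triptolide alone, the 3 aspirin arrays from mice given 4 mg per kg of aspirin alone, and the 2 control arrays from mice labelled untreated. Dosing ran 5 days a week for 2 months. The protocol lists PBS buffer in the place of the untreated group, so whether the controls were gavaged is unsettled. The labels give neither age nor sex, and nothing says that samples of a group are separate animals, so p-values measure only the spread between these samples, which may be technical. Values are log2 levels as deposited, so a difference of 1 is a doubling, and differences are given with the SE of a limma fit.

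Heme is built from glycine and succinyl-CoA in steps that begin and end inside the mitochondrion and pass through the cytosol between them. Every cell makes some heme, while red cell precursors, which fill themselves with hemoglobin, run the pathway at a far higher rate, with their own isoform of its opening enzyme (Alas2) and with high levels of the transferrin receptor and the mitochondrial iron importer. Such precursors normally live in bone marrow and, in mice, also in the spleen, whereas lung tissue holds circulating red cells, among them young ones that still carry RNA.

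Since the genes were chosen with the combination arrays in view, their values on those arrays are given as a description with no test. Combination 1 stood apart from every other array, at 60.2 on the first principal component of all genes against -15 to 6.8 for the other 10, and each result is therefore given with and without it. The lung identity of the samples was visible in Sftpc, a surfactant protein of alveolar type 2 cells, which lay between 13.62 and 14.27 on all arrays, and combination 1 had the lowest value. Xist, which female cells transcribe from their inactive X chromosome, read 12.26 to 12.80 on combination arrays, 6.61 to 12.32 on triptolide arrays, 6.77 to 7.0 on aspirin arrays and 11.98 to 12.07 on control arrays, so that any difference of aspirin lungs from control lungs, or of combination lungs from aspirin lungs, including that of the X-linked Alas2, coincides with one in this gene and cannot be told apart from it. The triptolide arrays were mixed in this respect, so comparisons with them coincide with it in part. In whole tissue, more cells of a type and more RNA per cell cannot be told apart either.

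The upstream sequences of 3 genes are shown because their values follow different patterns below: Alas2 was high on combination 1 and on aspirin arrays 2 and 3, whereas Cpox and Tfrc stood far above the rest on combination 1 alone. Each is the 250 bases before the gene's start in the RefSeq annotation of GRCm38.p6, read 5′ to 3′ on the plus strand, at chrX:150547167-150547416 for Alas2, chr16:58669958-58670207 for Cpox and chr16:32608646-32608895 for Tfrc. Capitals mark matches on either strand to the letters that GATA-family factors such as the erythroid Gata1 recognise. The motif AGATAA was searched, as was its variant TGATAA, and so were the forms ending in G, namely AGATAG and also TGATAG.
Alas2: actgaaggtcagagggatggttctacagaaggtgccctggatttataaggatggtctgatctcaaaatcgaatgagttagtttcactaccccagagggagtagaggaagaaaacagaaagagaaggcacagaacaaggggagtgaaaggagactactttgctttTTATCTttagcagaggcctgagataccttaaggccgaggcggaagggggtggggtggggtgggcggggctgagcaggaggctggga
Cpox: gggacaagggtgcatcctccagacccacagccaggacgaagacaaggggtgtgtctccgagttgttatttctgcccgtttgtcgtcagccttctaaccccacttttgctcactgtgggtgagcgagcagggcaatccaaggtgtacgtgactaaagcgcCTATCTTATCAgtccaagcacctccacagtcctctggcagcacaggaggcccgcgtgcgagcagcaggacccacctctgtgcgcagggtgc
Tfrc: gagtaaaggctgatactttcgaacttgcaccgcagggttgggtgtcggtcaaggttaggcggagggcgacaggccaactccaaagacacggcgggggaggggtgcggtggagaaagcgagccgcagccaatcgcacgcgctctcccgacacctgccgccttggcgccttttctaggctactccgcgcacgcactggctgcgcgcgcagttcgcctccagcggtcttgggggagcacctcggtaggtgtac
Alas2 held 1 match, starting at position -86 from the gene's start. Cpox held 2 upstream matches that overlap by a base, at -91 and -86, and 1 more within the 50 bases after the start, while neither of the 2 windows of Tfrc held any. Among the 9 windows of 300 bases listed for 6 of the genes, 3 held a match, and 29.8% of all 32851 promoter windows of that length did. A match describes letters only and does not show that a factor binds there.

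The first group comprises the enzymes at either end of the pathway and the importer that feeds the last step. Alas2, the erythroid isoform of aminolevulinate synthase, read 12.30, 9.29 and 9.35 on combination arrays 1 to 3, 9.41, 9.63 and 10.68 on triptolide arrays, 10.62, 12.73 and 11.99 on aspirin arrays, and 10.62 and 10.52 on control arrays. The highest value was that of aspirin 2, followed by combination 1 and aspirin 3, and the lowest were those of combination 2 and 3 and triptolide 1 and 2. Fech, ferrochelatase, which inserts iron into protoporphyrin in the final step, read 11.87, 9.26 and 9.36 on combination arrays, 9.43, 9.79 and 9.81 on triptolide arrays, 9.64, 11.41 and 10.67 on aspirin arrays, and 9.84 and 9.87 on control arrays. The same 3 arrays were highest, with combination 1 first. Slc25a37, or mitoferrin 1, which carries iron into the mitochondria of red cell precursors, read 12.44, 10.02 and 9.62 on combination arrays, 9.54, 9.84 and 9.92 on triptolide arrays, 10.01, 11.61 and 10.51 on aspirin arrays, and 9.55 and 9.62 on control arrays. Again combination 1, aspirin 2 and aspirin 3 led, and combination 3 lay only just above control 2.

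Group means kept those arrays' spread. Alas2 averaged 10.31 ± 1.72 with the combination, 9.90 ± 0.68 with triptolide and 11.78 ± 1.07 with aspirin (SD, n = 3 each), against 10.57 ± 0.07 in control (SD, n = 2). In the order aspirin, control, combination, triptolide, the step from aspirin to control exceeded either SD and the later steps did not. Fech averaged 10.16 ± 1.48 with the combination, 9.67 ± 0.21 with triptolide and 10.58 ± 0.89 with aspirin (SD, n = 3 each), against 9.85 ± 0.02 in control (SD, n = 2). Slc25a37 averaged 10.69 ± 1.52 with the combination, 9.77 ± 0.20 with triptolide and 10.71 ± 0.82 with aspirin (SD, n = 3 each), against 9.59 ± 0.05 in control (SD, n = 2). Aspirin and the combination led for both genes, and every step between neighbours lay within the larger SD. Without combination 1, the mean of the remaining combination arrays was 9.32 for Alas2 and 9.31 for Fech, each below the other groups' means, and 9.82 for Slc25a37.

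**Figure D1:**
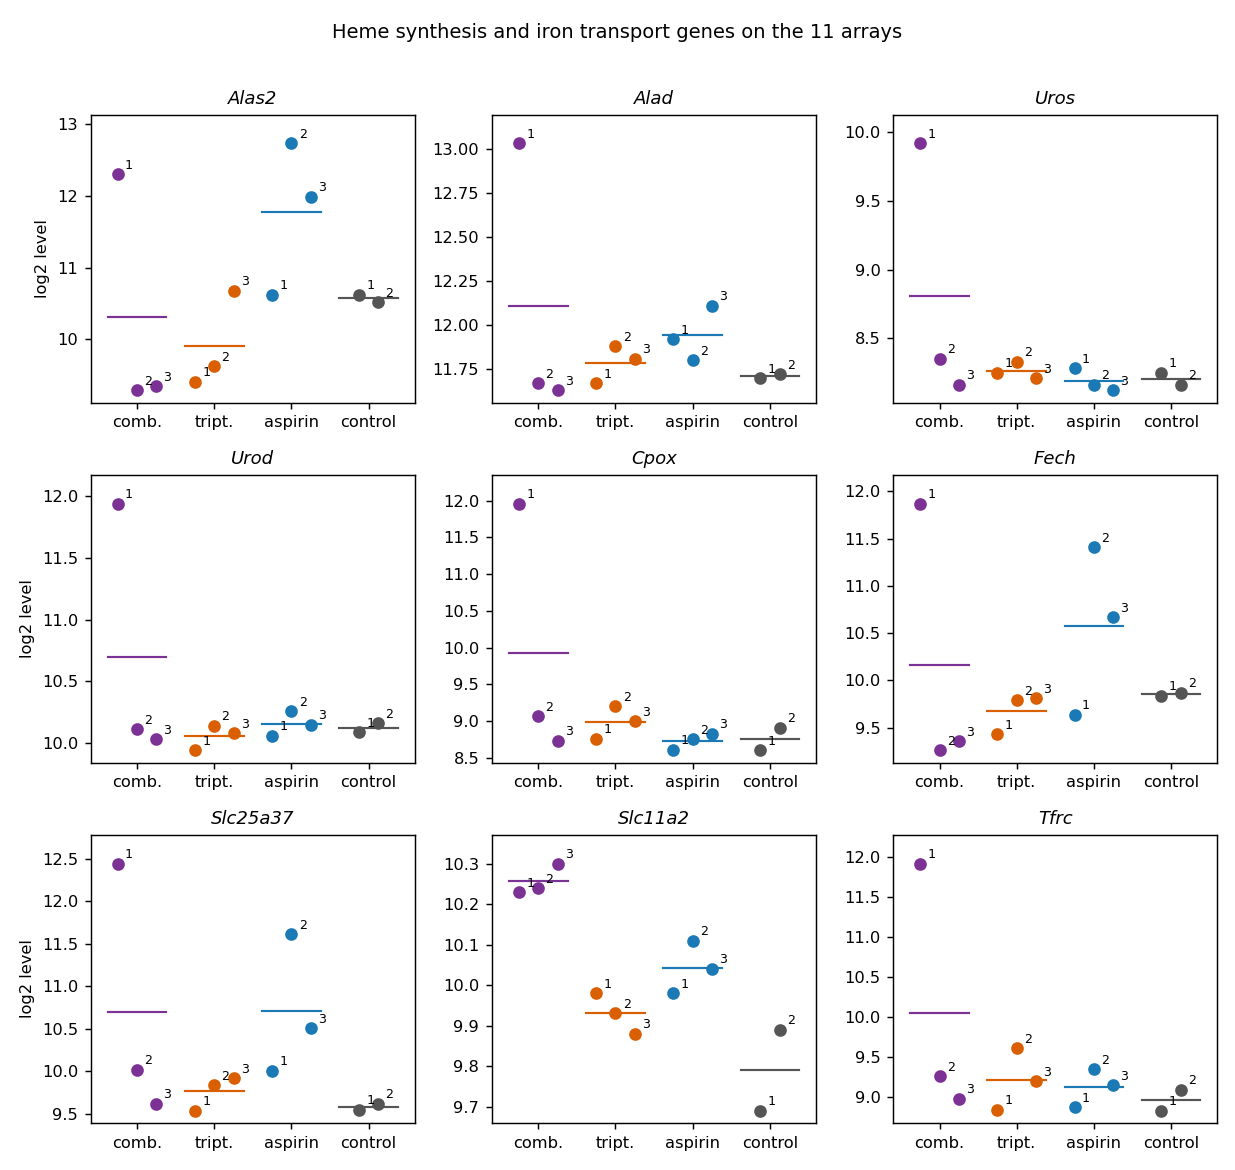
Log2 level of each gene (y axis, scaled separately for each gene) on every array, by group (x axis); numbers beside points are the replicate numbers and lines are group means. Combination 1 is the highest array for 7 of the 9 genes, aspirin 2 is the highest for Alas2, and Slc11a2 alone has all 3 combination arrays close together, at 10.23 to 10.30, above the triptolide, aspirin and control arrays.

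The enzymes in the middle of the pathway showed a single high array. Cpox, coproporphyrinogen oxidase, which returns the pathway to the mitochondrion, read 11.96, 9.07 and 8.73 on combination arrays, 8.76, 9.20 and 9.0 on triptolide arrays, 8.61, 8.75 and 8.83 on aspirin arrays, and 8.60 and 8.91 on control arrays. Combination 1 was 2.76 above the next highest array and 9.23-fold above the control mean, while the other 10 arrays spanned 0.60. Urod, uroporphyrinogen decarboxylase, read 11.94, 10.11 and 10.03 on combination arrays, 9.94, 10.14 and 10.08 on triptolide arrays, 10.06, 10.26 and 10.15 on aspirin arrays, and 10.09 and 10.16 on control arrays. Uros, uroporphyrinogen III synthase, read 9.92, 8.35 and 8.16 on combination arrays, 8.25, 8.33 and 8.21 on triptolide arrays, 8.28, 8.16 and 8.12 on aspirin arrays, and 8.25 and 8.16 on control arrays. For both genes combination 1 was the highest array, by 1.68 and 1.57, and the other 10 spanned only 0.31 and 0.22. Alad, the cytosolic dehydratase that follows aminolevulinate synthase, read 13.03, 11.67 and 11.63 on combination arrays, 11.67, 11.88 and 11.81 on triptolide arrays, 11.92, 11.80 and 12.11 on aspirin arrays, and 11.70 and 11.72 on control arrays. Its lead on combination 1 was 0.92, and all 3 aspirin arrays lay above both control arrays, with aspirin 3 rather than aspirin 2 the highest of them. On aspirin 2, where Alas2 was 4.48-fold and Slc25a37 4.06-fold above the control mean, Cpox was 1.00-fold, Uros 0.97-fold and Urod 1.09-fold.

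Tfrc, the transferrin receptor that brings iron into the cell, read 11.92, 9.26 and 8.98 on combination arrays, 8.84, 9.61 and 9.20 on triptolide arrays, 8.87, 9.35 and 9.15 on aspirin arrays, and 8.83 and 9.09 on control arrays. It resembled Cpox: combination 1 lay 2.31 above the next array, triptolide 2, and 7.79-fold above the control mean, and the other 10 arrays overlapped between groups. Over those 10 arrays, which share 4 treatment groups and differ in sex-linked genes, Pearson's r between Tfrc and Cpox was 0.82, and that between Alas2 and Fech was 0.95, against -0.30 between Alas2 and Cpox. With combination 1 included the last value was 0.39. The other middle enzymes differed over the 10 arrays. With Alas2, Fech, Slc25a37 and Cpox in turn, Urod was at 0.72, 0.78, 0.74 and 0.22. Alad was at 0.59, 0.51, 0.41 and 0.06, and Uros at -0.61, -0.57, -0.33 and 0.41.

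Slc11a2, or DMT1, a proton-coupled transporter that carries iron across the gut brush border and out of endosomes, was high on all combination arrays alike. It read 10.23, 10.24 and 10.30 on combination arrays, 9.98, 9.93 and 9.88 on triptolide arrays, 9.98, 10.11 and 10.04 on aspirin arrays, and 9.69 and 9.89 on control arrays. All 3 combination arrays were above every other array, and combination 1 was the lowest of the 3. Means were 10.26 ± 0.04 with the combination, 9.93 ± 0.05 with triptolide and 10.04 ± 0.07 with aspirin (SD, n = 3 each), against 9.79 ± 0.14 in control (SD, n = 2). In the order combination, aspirin, triptolide, control, only the combination arrays were clear of their neighbour: aspirin 1 and triptolide 1 both read 9.98, and triptolide 3 lay below control 2. The combination lay 0.47 ± 0.09 above control, 0.21 ± 0.08 above aspirin and 0.33 ± 0.08 above triptolide, and without combination 1 these differences were 0.48 ± 0.09, 0.23 ± 0.09 and 0.34 ± 0.09. On combination 1 it was 1.36-fold above the control mean, the smallest such fold of the 9 genes.

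The combination was set against control to ask what the drugs do together. Of the 9 genes, 8 had a higher mean with the combination, with a median difference of 0.57 against 0.01 over all genes, and 2, Slc11a2 and Slc25a37, were higher on all 3 combination arrays than on both control arrays, where 14.2% of all genes were. None was lower on all 3, where 20.5% of all genes were. By difference, Cpox stood at 1.16 ± 0.72, Slc25a37 at 1.11 ± 0.69 and Tfrc at 1.10 ± 0.67, and Alas2 at -0.26 ± 0.85. Without combination 1 the median was 0.05: 5 genes were above control and 4 below, Alas2 at -1.25 ± 0.57 and Fech at -0.54 ± 0.41. On the remaining combination arrays Alas2, Alad and Fech were below both controls, where 28.4% of all genes were, and Slc11a2 and Slc25a37 above both, where 23.7% were. limma called 0 of all 19938 genes, a share of 0%, at an adjusted p under 0.05 for this comparison, and 2795 had an unadjusted p under 0.05.

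**Figure D2:**
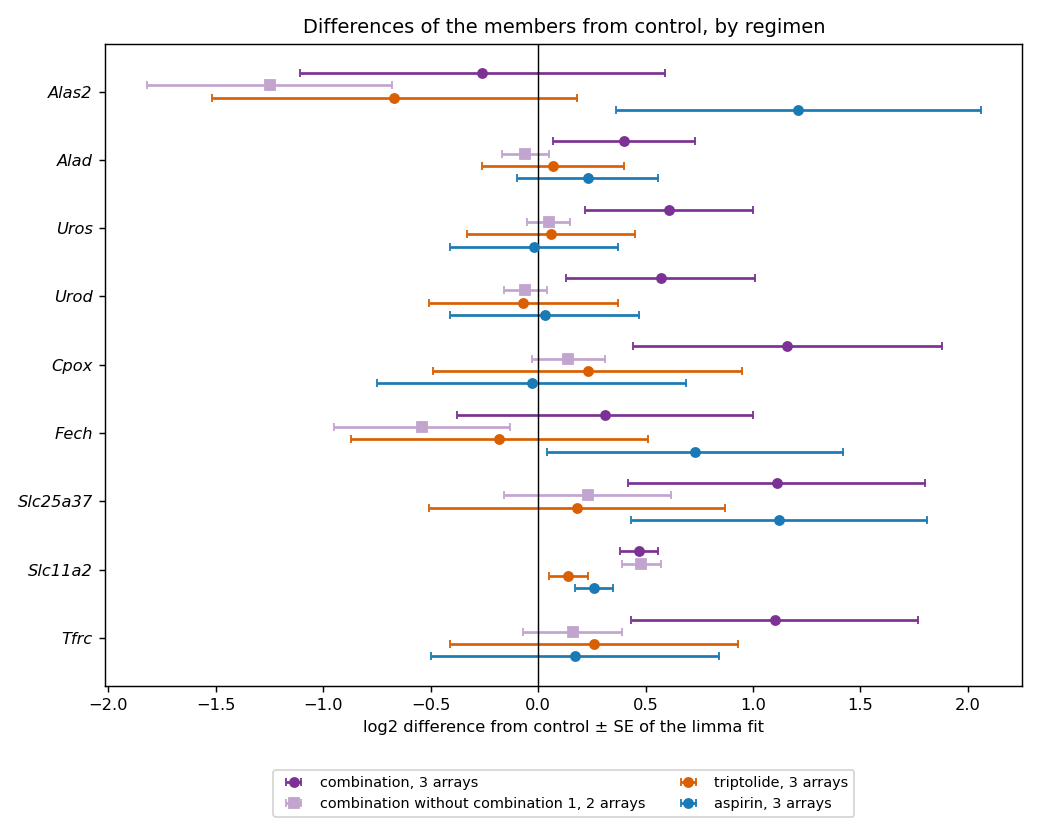
Difference from control in log2 (x axis) for each gene (rows), with bars of 1 SE of the limma fit, for the combination with and without combination 1, triptolide and aspirin. Leaving out combination 1 moves Cpox from 1.16 to 0.14 and Alas2 from -0.26 to -1.25, and leaves Slc11a2 at 0.48.

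Triptolide alone was compared with control to ask what that drug does by itself. Of the 9 genes 6 had a higher and 3 a lower mean, with a median of 0.07 against -0.01 over all genes. Alas2 differed by -0.67 ± 0.85, Tfrc by 0.26 ± 0.67 and Slc11a2 by 0.14 ± 0.09. Fech was below both control arrays on all 3 triptolide arrays, where 13.3% of all genes were, and no gene of the 9 was above both on all 3, where 9.92% were. limma gave all 9 an adjusted p of 1, 0 of them an unadjusted p under 0.05, and called 0 of all genes, a share of 0%, with 561 at an unadjusted p under 0.05. Within the group, Alas2 on triptolide 1 and 2 was 1.16 and 0.94 below the control mean, and on triptolide 3 it was 0.11 above. With the mean of the Y-linked Eif2s3y, Uty and Kdm5d as a covariate, the median of the 9 genes was -0.14 and Tfrc differed by -0.26 ± 1.07.

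Aspirin alone was compared with control for the same reason. The genes were chosen with these arrays in view, so the p-values of the 9 genes are no independent test. Of the 9 genes 7 had a higher mean, with a median of 0.23 against 0.00 over all genes. Alas2 differed by 1.21 ± 0.85, Slc25a37 by 1.12 ± 0.69, Fech by 0.73 ± 0.69, Slc11a2 by 0.26 ± 0.09 and Alad by 0.23 ± 0.33. Slc11a2, Alad and Slc25a37 were above both controls on all 3 aspirin arrays, where 10% of all genes were. None was below both on all 3, where 16% of all genes were. Alas2 and Fech were among those that overlapped, since aspirin 1 read 10.62 and 9.64 for them. None passed: limma gave all 9 an adjusted p of 1, and Slc11a2 alone had an unadjusted p under 0.05, at 0.0163. Of all genes limma called 0, a share of 0%, with 609 at an unadjusted p under 0.05. With array weights Slc11a2 passed, at a limma adjusted p of 0.0499, as did 535 of all 19938 genes. These weights were 0.44, 0.62 and 5.99 for aspirin 1 to 3. Without combination 1, whose spread enters the shared error, unadjusted p-values were 0.00979 for Slc25a37, 0.0139 for Slc11a2, 0.0405 for Alas2 and 0.0492 for Alad, and limma's adjusted p-values for these lay between 0.607 and 0.782. Without aspirin 2 the difference was 0.73 ± 0.90 for Alas2 and 0.67 ± 0.72 for Slc25a37, each with a limma adjusted p of 0.981, and 0.31 ± 0.73 for Fech, with 0.992. With the Y-linked covariate the median of the 9 genes was 0.01, and the difference was 0.27 ± 1.55 for Alas2, 0.11 ± 1.28 for Fech and 0.72 ± 1.29 for Slc25a37.

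The combination was also set against each drug, to ask what adding the other does; these comparisons share arrays with those above. Against aspirin, the median difference of the 9 genes was 0.21 and 6 were higher, with Cpox at 1.19 ± 0.64 and Alas2 at -1.47 ± 0.76. Without combination 1 the median was -0.09, and Alas2 at -2.46 ± 0.52, Fech at -1.27 ± 0.38 and Alad at -0.29 ± 0.10 were lower on both remaining combination arrays than on every aspirin array, where 13.1% of all genes were. Against triptolide all 9 were higher, with a median of 0.54, and without combination 1 only 3 were, with a median of -0.09. Slc11a2 was above every aspirin array and every triptolide array on all 3 combination arrays, where 5.47% and 8.36% of all genes were, and none was below every aspirin or every triptolide array on all 3, where 9.86% and 9.53% were. Without combination 1, Slc11a2 was again the gene above every aspirin and every triptolide array, as were 11.1% and 14.6% of all genes, and Alas2 and Fech were below every triptolide array, as were 14.2%. limma called 0 genes, a share of 0%, in either comparison, with 2322 and 2703 genes at an unadjusted p under 0.05. With the Y-linked covariate these numbers were 351 and 91, and the combination differed from aspirin by -0.63 ± 1.38 for Alas2 and 0.13 ± 1.13 for Fech over all 11 arrays.

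The heme pathway has other genes that were not among the 9, and 11 listed ones were measured. None passed limma's test for triptolide or aspirin against control, and 1, Alas1, had an unadjusted p under 0.05 for aspirin. On combination 1, 7 of the 11 had their highest value. Ppox, protoporphyrinogen oxidase, the enzyme between Cpox and Fech, read 11.18, 9.83 and 9.74 on combination arrays, 9.65 to 9.73 on triptolide arrays, 9.70 to 9.82 on aspirin arrays and 9.49 on both control arrays. Unlike the middle enzymes above, it was higher on every treated array than on either control array. For each regimen by itself, 9.92% of all genes were so for triptolide, 10% for aspirin and 14.2% for the combination. The mitochondrial transporters Abcb10, which stabilises mitoferrin 1, and Slc25a38, which imports glycine, and Tmem14c, which supports porphyrin transport, were 2.20, 1.63 and 1.36 above the control mean on combination 1. On aspirin 2, where mitoferrin 1 stood 2.02 above the control mean, Abcb10 stood at -0.10, Slc25a38 at 0.29 and Tmem14c at -0.14.

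Alas2 and mitoferrin 1 each have a counterpart that other tissues use. Alas1, the isoform of aminolevulinate synthase used outside red cells, read 11.62, 12.29 and 12.39 on combination arrays, 12.06, 11.93 and 12.03 on triptolide arrays, 11.96, 12.20 and 12.18 on aspirin arrays, and 11.51 and 11.73 on control arrays. Combination 1, high for Alas2, lay between the control arrays for Alas1, and all other treated arrays lay above both controls. Taken singly, 9.92% of all genes were so for triptolide, 10% for aspirin and 23.7% for the combination without combination 1. Alas1 differed by 0.39 ± 0.19 for triptolide and by 0.49 ± 0.19 for aspirin against control, with a limma adjusted p of 1 for each and an unadjusted p of 0.074 and 0.0296. Slc25a28, or mitoferrin 2, the importer of other tissues, lay between 9.42 and 9.54 on all 11 arrays, with the lowest value on combination 1. Pgrmc1, a heme-binding membrane protein, was 0.94 below the control mean on combination 1, its lowest value of the 11 arrays.

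**Figure D3:**
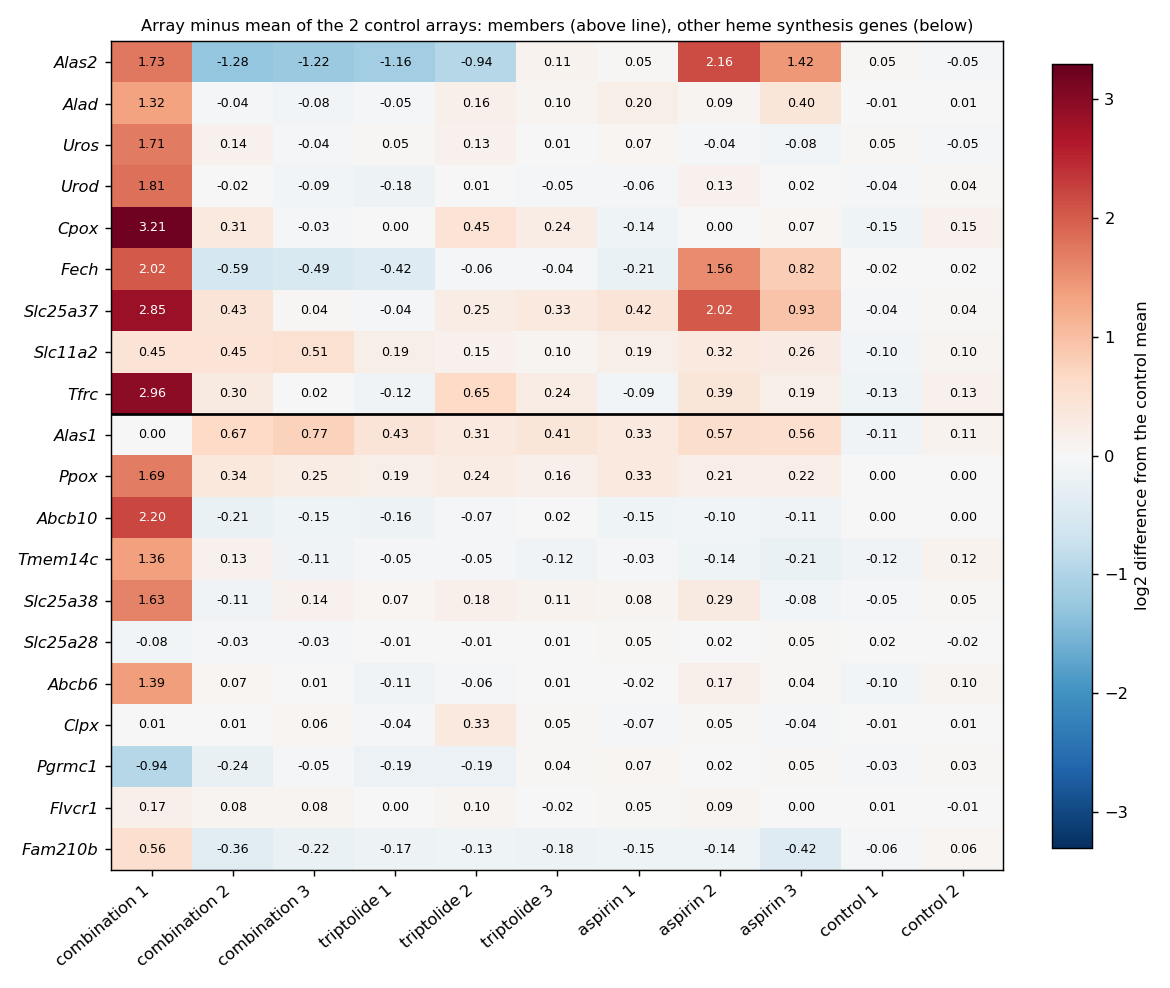
Log2 difference of each array (columns) from the mean of the control arrays for the 9 genes (above the line) and 11 other genes of heme synthesis (below), as colour and number. The combination 1 column is positive for all 9 genes, from 0.45 for Slc11a2 to 3.21 for Cpox, whereas the aspirin 2 column exceeds 1 for Alas2, Fech and Slc25a37 alone.

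Genes that store, export and sense iron did not follow the 9 as a group. Of 22 genes of iron uptake, storage and export, 11 were higher and 11 lower with the combination than in control, with a median of -0.01, and none passed for triptolide or aspirin, for which 0 and 3 had an unadjusted p under 0.05. Fth1, the ferritin heavy chain, read 13.63, 13.84 and 13.89 on combination arrays, 13.89 to 13.93 on triptolide arrays, 13.84 to 13.91 on aspirin arrays and 13.83 to 13.84 on control arrays, lowest on combination 1. Of 12 genes of iron sensing and iron-sulphur clusters, 5 were higher with the combination, with a median of -0.02. Glrx5, a glutaredoxin needed to build these clusters, read 11.98, 10.23 and 10.04 on combination arrays and 9.97 to 10.58 on all others. Like Cpox it was far highest on combination 1, but unlike Cpox its next array was aspirin 2, at 10.58. Isca1, another assembly factor, read 11.36 on combination 1, 11.38 on aspirin 2 and 10.85 on aspirin 3 against 10.10 to 10.45 elsewhere, the order of arrays seen for Alas2. Of 12 genes of heme breakdown and recycling, 8 were higher with the combination and 4 lower, and the median was 0.07. Hmox2, the constitutive heme oxygenase, was among the 4 lower ones. It read 9.99, 10.15 and 10.31 on combination arrays and 10.40 and 10.41 on control arrays. None of the genes in the last 2 sets passed limma's test for triptolide or aspirin, and 0 had an unadjusted p under 0.05. On combination 1 the sets, in the order given, had medians of -0.19, 0.11 and -0.03 from the control mean, against 1.81 for the 9 genes. Some single genes had their highest value on combination 1, namely 4 of the 22, 4 of the 12 and 5 of the 12. These counts are not set against the share over all genes.

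Markers of erythroid cells moved with the 9 genes on combination 1. All 19 measured genes of the red cell membrane and surface had their highest value there, with a median of 3.57 above the control mean, and so did 11 of 12 erythroid transcription factors, with a median of 1.79. Their list levels, the mean deviation of the genes from their own means over the 11 arrays, were 3.09 and 1.57 on combination 1, and -0.58 to 0.04 and -0.29 to 0.03 on the other 10. Epor, the erythropoietin receptor, read 11.07, 8.78 and 8.58 on combination arrays, 8.40 to 8.45 on triptolide arrays, 8.54 to 8.71 on aspirin arrays and 8.57 to 8.58 on control arrays. All 23 cell cycle genes were also highest on combination 1, at a list level of 2.45 against -0.38 to -0.08, and Mki67, a protein of dividing cells, read 12.60 there against 8.13 to 9.19. Of all 19938 genes, 187, or 0.938%, lay more than 2 above the control mean on that array. The part of these cells in the values of the 9 genes was not tested.

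Aspirin 2 and 3 were next in level for some erythroid genes. Slc4a1, the anion exchanger of the red cell membrane, read 13.26, 8.91 and 8.34 on combination arrays, 8.07 to 8.68 on triptolide arrays, 8.87, 11.21 and 10.38 on aspirin arrays, and 8.44 and 8.41 on control arrays, in the same order of aspirin arrays as Alas2. On aspirin 2 the 19 erythroid membrane and surface genes and the 12 transcription factors had medians of 0.19 and 0.18 above the control mean. The median over all genes on that array was -0.04. Aspirin 2 was the highest array other than combination 1 for 10 and 4 of them. On aspirin 3 the 2 medians were 0.14 and 0.08, against -0.02 over all genes. Epor, at 8.54 on aspirin 2, and the factor Lmo2, at 10.11, lay below both control arrays. The cell cycle level of aspirin 2 was -0.23, within the control range of -0.25 to -0.21. Other blood cell markers were high there: all 9 platelet and megakaryocyte genes and all 11 mature neutrophil genes had their highest value of the 11 arrays on aspirin 2, at list levels of 1.45 and 2.32. The platelet level was 0.50 on aspirin 3, 0.12 on aspirin 1, 0.51 on combination 1 and -0.43 to -0.41 on the control arrays, and the neutrophil level of aspirin 3 was -0.41, with the control arrays at -0.40 and -0.38. The part of these cells in the aspirin values of Alas2, Fech and Slc25a37 was not tested.

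**Figure D4:**
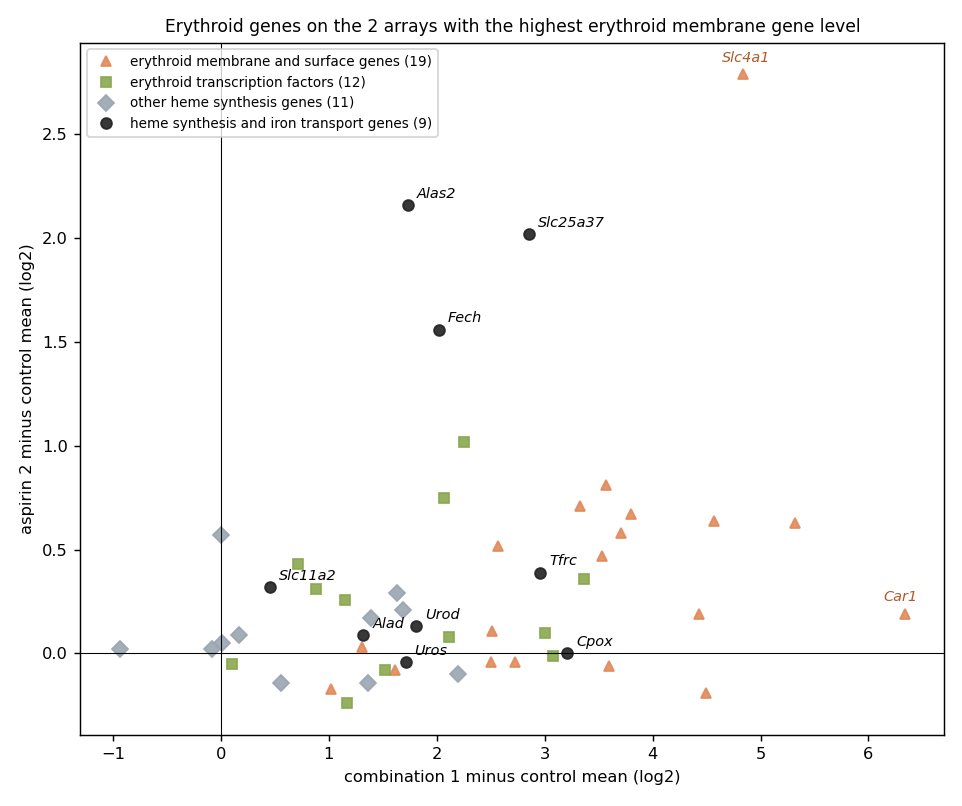
Log2 difference from the control mean on combination 1 (x axis) and on aspirin 2 (y axis) for the 9 genes (labelled), other heme synthesis genes, erythroid transcription factors and erythroid membrane genes; Slc4a1 and Car1, a carbonic anhydrase, are also labelled. Alas2, Fech, Slc25a37 and Slc4a1 are high on both arrays. Cpox, Tfrc and Car1 lie far right, and Uros at 1.71 and Urod at 1.81 about as far right as Alas2 at 1.73. These 5 lie near 0 on the y axis, with Tfrc at 0.39.

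Globins could not be followed in the same way, because the rows for the adult alpha and beta chains each carry several symbols and were left out. The 5 globin genes with a row of their own are embryonic or minor forms, and Hbq1b, a theta globin, read 9.33, 8.47 and 8.22 on combination arrays and 7.69 to 8.37 on all others. Granulocyte precursor genes were high on combination 1 and aspirin 2, at list levels of 0.73 and 0.85 against -0.38 to 0.03 elsewhere. On aspirin 2 the level rests on Mmp8 and Ngp, named after their values were seen, at 4.60 and 3.78 above the control mean: the other 8 genes lay between -0.18 and 0.54, and the list median was 0.40, against 0.64 on combination 1. Elane, an elastase made by these precursors, read 9.15 on combination 1 and 8.22 on aspirin 2, against 7.51 to 7.84 on the other arrays. Lung epithelial genes were lowest on combination 1, at -0.69 against -0.12 to 0.24 elsewhere, and endothelial genes as well, at -0.72 against -0.35 to 0.38. Haematopoietic progenitor genes, several of which endothelium also expresses, were at -0.18 there against -0.10 to 0.08. Alveolar macrophage genes were at -0.61 on combination 1 against -0.36 to 0.38 on the other arrays. B and plasma cell genes were at 0.66, 0.53 and 0.25 on combination arrays, -0.20 to 0.35 on triptolide arrays, -0.52 to -0.12 on aspirin arrays and -0.29 to -0.28 on control arrays. Hypoxia genes, among them the regulator Epas1, were at -0.29 on combination 1 against -0.06 to 0.12.

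**Figure D5:**
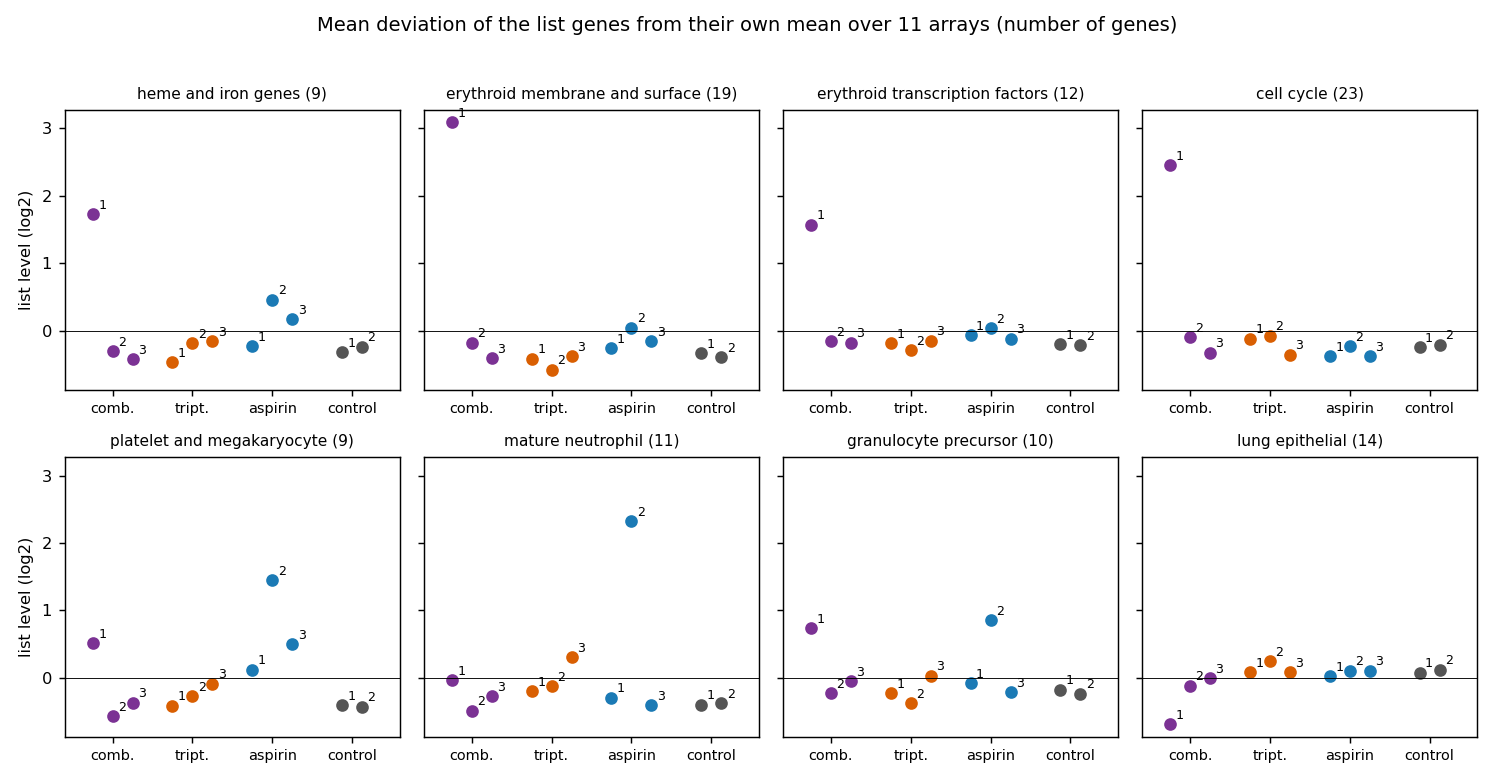
List level (y axis, log2) on each array by group for the 9 genes and 7 marker lists, with the number of genes in brackets and replicate numbers beside points. Combination 1 leads for the erythroid lists at 3.09 and 1.57 and for cell cycle genes at 2.45, and aspirin 2 leads for platelet and neutrophil genes at 1.45 and 2.32.

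The genes most like Alas2, Slc11a2 and Tfrc were looked for among all other genes by Pearson's r over the 10 arrays without combination 1, as a description. Closest to Alas2 were Ube2l6, a ubiquitin-conjugating enzyme, at 0.98, Bpgm, the red cell enzyme that makes 2,3-bisphosphoglycerate, at 0.96, Rapgef3 at 0.96, Cdr2 at 0.95 and Marchf2 at 0.95. Bpgm read 10.51, 8.30 and 8.42 on combination arrays, 8.43, 8.75 and 8.93 on triptolide arrays, 9.10, 10.85 and 10.18 on aspirin arrays and 8.78 and 8.82 on control arrays. With combination 1 included, 4 of these stayed at 0.90 or above and Rapgef3 stood at 0.22. Closest to Slc11a2 were Spag17, a protein of the ciliary axoneme, at 0.97, Tmem212 at 0.97, Tmem232 at 0.97, Ect2l at 0.96 and Cdhr3, a cadherin of ciliated airway cells, at 0.96. With combination 1, where Spag17 read 8.0 against 8.77 and 8.70 on the other combination arrays, these lay between 0.67 and 0.78. Closest to Tfrc were D5Ertd579e and Uqcr10, a respiratory chain subunit, both at 0.94, Adcy6 at 0.93, and Zfp868 and Dcun1d5 at 0.92. None of the last 5 except Adcy6, at 0.94, was above 0.75 over all 11 arrays.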

How the data were processed

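Lung RNA of 11 mouse samples was measured on Affymetrix arrays. The authors deposited log2 levels, 1 per row and array over 35556 rows; per the submitters' processing notes RMA and Partek were used, without versions. The median over rows of an array lay between 8.135 and 8.254, and no detection calls come with the values. Precision is limited by how few arrays there are. Gene names came from the platform annotation held by GEO: 21789 carried 1 symbol, 1621 several and 12146 none. For genes with several rows, the row with the highest mean was kept, which left 19938 genes. limma 3.58.1 in R 4.3.3 (lmFit, eBayes) was fitted over all 11 arrays and 4 groups, two-sided, with Benjamini-Hochberg adjustment over all genes and a threshold of 0.05; it had 7 residual and 3.68 prior degrees of freedom. The 9 genes and 18 lists, of which 234 of 257 symbols were measured, were chosen with earlier results of these data known. Besides the 9 genes and the other heme synthesis genes, the text names the 4 genes with the highest mean level of a list and the 5 closest to Alas2, Slc11a2 and Tfrc; Car1 was named after its values were seen. Alternatives were array centring, quantile normalization, mean rows, a minimum mean of 6, array weights, other variance models, 2 groups alone, a replicate block, a Y-linked covariate (Eif2s3y, Uty and Kdm5d) and leaving out arrays.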

Additional observations from a re-analysis of the deposited data

How the results depend on the processing

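Of 22 alternatives, 1 (without combination 1 and aspirin 2) was chosen after seeing the data. The number of the 9 genes passing limma's test stayed at 0 for triptolide against control. For aspirin against control it was 1 with array weights, which ran from 0.15 for combination 1 to 5.99 for aspirin 3 (Slc11a2, limma adjusted p 0.0499, range 0.0499 to 1 over the alternatives), and 0 otherwise. The arrays of both comparisons were in view when the genes were chosen, so these counts are no independent test. Counts for comparisons with combination arrays use the values by which the genes were chosen and are no test of them. With array weights they were 1 against control and 2 against aspirin, where 1704 and 873 of all 19938 genes passed. On leaving out 1 array they were 0 to 1 against control (1 without combination 3, where 896 of all genes passed). All other such counts were 0. Leaving out 1 array, the median difference of the 9 genes ran from 0.05 to 0.90 for the combination, 0.03 to 0.12 for triptolide and 0.15 to 0.29 for aspirin against control, from -0.09 to 0.52 for the combination against aspirin, and from -0.09 to 0.93 for the combination against triptolide. That last median was -0.09 also without combination 1 and aspirin 2, against 0.54 with all arrays. With the Y-linked covariate the triptolide median turned to -0.14, against 0.07, and the aspirin median was 0.01, against 0.23; with the replicate block the triptolide median was 0.15. Differences of single genes turned sign in 5 of 198 values for triptolide and 12 of 198 for aspirin against control, and in 9, 12 and 15 of 198 for the combination against control, aspirin and triptolide. Without combination 1, Cpox was at -0.09, Tfrc at -0.10, Uros at -0.01, Alad at -0.14, Fech at -0.36 and Alas2 at -0.58 against triptolide, Alad at -0.06, Urod at -0.06 and Fech at -0.54 against control, and Alad at -0.29 and Urod at -0.09 against aspirin, with each above 0 on all arrays. With the Y-linked covariate, triptolide minus control was -0.10 for Alad, -0.07 for Cpox, -0.14 for Slc25a37 and -0.26 for Tfrc, and aspirin minus control -0.20 for Urod and -0.49 for Tfrc. With the replicate block, triptolide minus control was 0.03 for Urod, and aspirin minus control 0.11 for Uros and 0.16 for Cpox. With array weights aspirin minus control was 0.05 for Cpox, and without combination 1 and aspirin 2 it was -0.02 for Urod. Leaving out 1 array, it ran from -0.06 to 0.03 for Uros, -0.02 to 0.08 for Urod and -0.18 to 0.13 for Cpox. Over all genes, 0 passed for the combination against control in the fit reported, against 1704 with array weights, 896 without combination 3, 152 with the replicate block, 96 with the Y-linked covariate, 83 with centred arrays, 56 with trend and robust moderation, 11 without triptolide 1 and 1 to 4 in the other fits with any. For aspirin against control 535 passed with array weights, for the combination against aspirin 873 with array weights and 704 without combination 3, for the combination against triptolide 24 without combination 3, and for triptolide against control 10 with array weights; all remaining counts there were at most 11. The replicate numbers were not shown to pair the samples: 6 of 15 same-numbered pairs correlated above 0.1 in their deviations from group means (-0.139 to 0.329), and the block changed no call among the 9 genes. The cause of these changes was not tested. The number of arrays limits precision, and detection calls were not used here.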
